A study of Mus musculus with 2 samples.

Results

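The miR-183, miR-96 and miR-182 cluster consists of 3 microRNA genes that lie together on the minus strand of mouse chromosome 6 and are often called the sensory cluster. Its members, Mir183, Mir96 and Mir182, were taken by name after the gene identifiers of the deposited tables had been matched to symbols, and all 3 were found among 1973 microRNA gene rows. Levels were measured by microRNA sequencing (small RNA shorter than 30 bases) in whole limbs of B6NCrl mouse embryos at 12.5 days of development, with male and female embryos pooled. The labels give 1 group, limb of healthy embryos, with 2 biological replicates, a pool of 88 embryos for replicate 1 and of 68 embryos for replicate 2. There was no treatment, genotype or second tissue, so the design compares microRNA genes within the limb and the replicates with each other.

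As background, the 3 microRNAs of this cluster are transcribed together as one long precursor, from which the hairpins are cut and trimmed to the mature strands that guide repression of messenger RNAs. The seed, bases 2 to 8 of the mature strand, does most of the work of finding targets. The cluster is known for its high levels in hair cells of the inner ear, photoreceptors, olfactory cells and sensory neurons of the dorsal root ganglia, and seed mutations of miR-96 cause hearing loss in mice and people.

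The genes follow each other in the order Mir183, Mir96 and Mir182 in the direction of transcription. Coordinates are those of mm10 (GRCm38), and each gene is annotated as a single-exon microRNA hairpin. Mir183 (ENSMUSG00000065619.2) occupies chr6:30169668-30169737, Mir96 (ENSMUSG00000065586.1) chr6:30169446-30169551 and Mir182 (ENSMUSG00000076361.1) chr6:30165918-30165992. Between Mir183 and Mir96 lie 116 bases, and between Mir96 and Mir182 lie 3453 bases. GENCODE M21 annotates no host gene over them, while RefSeq places all 3 inside the span of Mirc35hg, a long non-coding RNA on the same strand (chr6:30158640-30174125). From the start of Mirc35hg the hairpins begin 4388 bases (Mir183), 4574 bases (Mir96) and 8133 bases (Mir182) downstream. The nearest protein-coding genes are Nrf1, which encodes a transcription factor, on the plus strand and Ube2h, which encodes a ubiquitin-conjugating enzyme, on the minus strand, and neither overlaps the cluster.

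The hairpins are shown because the counts cover the whole of each one. The sequences are RefSeq's (GRCm38.p6), written 5′ to 3′, with the annotated 5p and 3p mature strands in capitals.
Mir183: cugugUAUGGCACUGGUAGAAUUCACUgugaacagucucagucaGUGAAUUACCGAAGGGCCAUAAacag
Mir96: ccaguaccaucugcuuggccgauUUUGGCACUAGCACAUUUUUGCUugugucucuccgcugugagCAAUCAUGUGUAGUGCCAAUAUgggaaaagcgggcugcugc
Mir182: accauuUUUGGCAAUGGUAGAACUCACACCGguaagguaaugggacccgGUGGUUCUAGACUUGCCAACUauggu

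The hairpins are 70, 106 and 75 bases long. Reads of the 5p and 3p strands were counted together, so the values below do not say which strand they came from. In a predicted fold, Mir183 had 27 base pairs and a free energy of -26.2 kcal/mol, Mir96 39 base pairs and -47.9 kcal/mol, and Mir182 24 base pairs and -29.9 kcal/mol. No stretch of 20 bases or more in these hairpins occurred in another microRNA gene, and the longest shared stretches were 14 bases for Mir183, 11 bases for Mir96 and 11 bases for Mir182.

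The 5p strands carry closely related seeds, which are in capitals here beside the seed of miR-1271-5p, made elsewhere in the genome.
miR-183-5p: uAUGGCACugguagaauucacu
miR-96-5p: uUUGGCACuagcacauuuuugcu
miR-182-5p: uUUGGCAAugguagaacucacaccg
miR-1271-5p: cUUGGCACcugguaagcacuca

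Positions are counted from 1 at the 5′ end of the mature strand. The seeds of miR-182-5p and miR-96-5p are identical in 6 of 7 bases and differ by A8C (miR-182-5p first). Those of miR-183-5p and miR-96-5p are also identical in 6 of 7 bases and differ by A2U (miR-183-5p first). The seeds of miR-182-5p and miR-183-5p are identical in 5 of 7 bases, with the differences U2A and A8C (miR-182-5p first). Over the first 22 bases, however, miR-182-5p and miR-183-5p are the closest of the 3 pairs, with 18 identical bases, against 12 of 23 for miR-182-5p with miR-96-5p and 13 of 22 for miR-183-5p with miR-96-5p.

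All 3 genes were detected, which here means at least 10 CPM in both libraries, and 14.5% of the 1973 gene rows met this threshold. CPM is the count on the strand of the gene per 1000000 such counts over all microRNA genes. Mir182 stood at 3368 CPM in replicate 1 and 2654 CPM in replicate 2. Mir183 stood at 2130 CPM in replicate 1 and 2814 CPM in replicate 2. For both genes the libraries lay apart, but in opposite directions, so that Mir182 was the higher of the pair in replicate 1 and Mir183 in replicate 2.

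Mir96, the member whose seed mutations cause deafness, was the lowest in both libraries, at 916 CPM in replicate 1 and 769 CPM in replicate 2. As means over the replicates (± SD, n = 2), the levels were 3011 ± 505 CPM for Mir182, 2472 ± 484 CPM for Mir183 and 842 ± 104 CPM for Mir96. These levels rest on 15242 and 9564 counts for Mir182, 9639 and 10144 for Mir183, and 4144 and 2772 for Mir96 (replicate 1 and replicate 2 in each case). Counting error was small at this depth: the 95% Poisson interval of Mir96, the gene with the fewest counts, ran from 888 to 944 CPM in replicate 1 and from 741 to 798 CPM in replicate 2. These intervals and the limits given for a count of 0 cover counting error alone. They leave out differences between pools and between library preparations. PCR copies of one molecule, which were not measured here, are not allowed for either.

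Small RNA reads come from the mature strands, so levels are given per gene, and the order of the means was the same per length. Per 100 bases of hairpin, the levels were 4014 ± 674 CPM for Mir182, 3532 ± 692 CPM for Mir183 and 795 ± 97.8 CPM for Mir96 (SD, n = 2). How well each sequence was recovered in library preparation was not measured, so these are levels of reads and not of molecules.

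**Figure D1:**
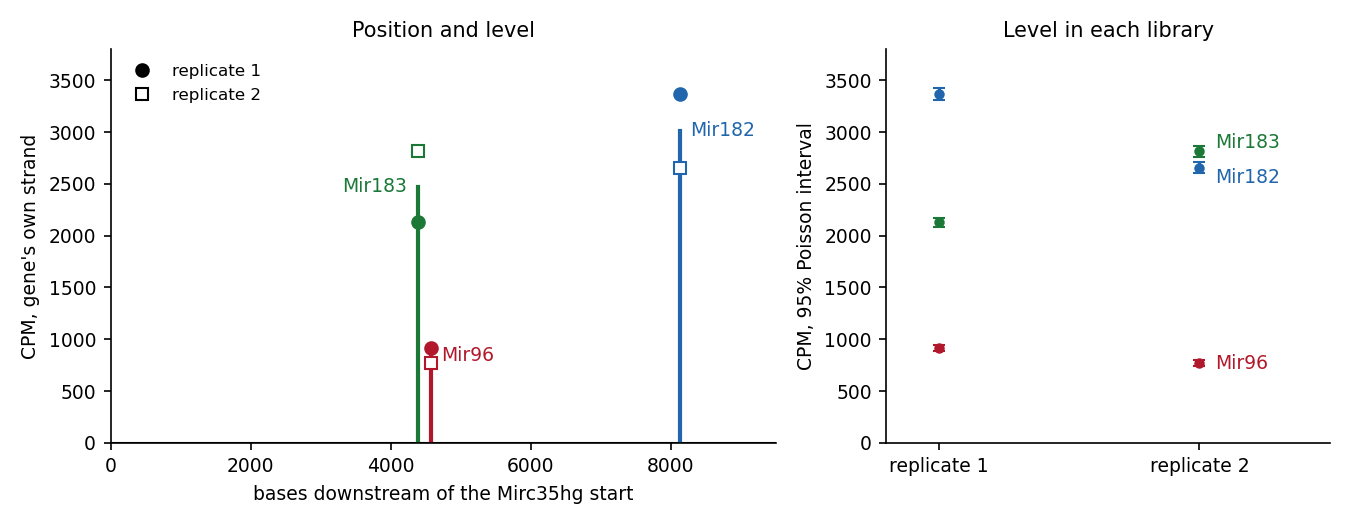
Left, CPM on the gene's own strand (y axis) against distance in bases from the start of the RefSeq transcript Mirc35hg (x axis), with bars at the mean of the 2 replicates, filled circles for replicate 1 and open squares for replicate 2. Right, CPM of each gene in each library with its 95% Poisson interval. Mir182 is higher than Mir183 in replicate 1 (3368 against 2130 CPM) and lower in replicate 2 (2654 against 2814 CPM), while Mir96 is lowest in both.

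Together the 3 genes held 0.641% of the microRNA counts in replicate 1 (95% Clopper-Pearson interval 0.634 to 0.649) and 0.624% in replicate 2 (0.616 to 0.632). The sum of the cluster was 6325 ± 125 CPM (SD, n = 2), a coefficient of variation of 1.97%, against 19.6% for Mir183, 16.8% for Mir182 and 12.3% for Mir96. The closeness of the sum depends on the scaling: its coefficient of variation was 2.95% with TMM scaling, 4.47% with DESeq2 size factors, 3.27% with the 10 highest genes left out of the total and 11.7% relative to all reads in the tables. In the last of these Mir183 alone, at 9.90%, was closer between the libraries than the sum. Within the cluster, Mir182 held 52.5% of the counts in replicate 1 and 42.5% in replicate 2, Mir183 held 33.2% and 45.1%, and Mir96 held 14.3% and 12.3%.

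Ratios within a library do not depend on scaling. Mir182 exceeded Mir96 by 3.68 times in replicate 1 (95% interval for counting error 3.55 to 3.81) and by 3.45 times in replicate 2 (3.31 to 3.60), and these intervals overlap. Mir183 exceeded Mir96 by 2.33 times in replicate 1 (2.24 to 2.41) and by 3.66 times in replicate 2 (3.51 to 3.82), without overlap. The ratio of Mir182 to Mir183 was 1.58 in replicate 1 (1.54 to 1.62) and 0.943 in replicate 2 (0.917 to 0.970), again without overlap. Mir182 and Mir96 thus kept nearly one proportion in the 2 pools, while the proportion of Mir183 to either differed by 1.57 to 1.68 times. The order of Mir182 and Mir183 was not resolved, and both stood above Mir96 in each library.

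Setting the replicates against each other gene by gene gave the size of these differences on one scale. The log2 ratio of replicate 1 over replicate 2 was 0.34 for Mir182, 0.25 for Mir96 and -0.40 for Mir183, with standard errors of 0.019, 0.035 and 0.021 that cover counting error. In a two-sided exact binomial test of the counts, adjusted by the Benjamini-Hochberg method over 436 genes, the adjusted p was 1.30e-74 for Mir182, 4.86e-12 for Mir96 and 3.34e-84 for Mir183. This test compares 2 libraries with counting error alone, and it called 41.7% of all genes tested and 74.1% of the 189 genes at 100 CPM or more, so the 3 calls out of 3 do not set the cluster apart. By direction, Mir182 and Mir96 were among the 21.3% of genes called higher in replicate 1, and Mir183 among the 20.4% called higher in replicate 2. An edgeR exact negative binomial test, which takes its spread from the same libraries, called 0% of the genes (25 had an unadjusted p under 0.05), and its adjusted p was 1 for each cluster gene.

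Against genes at 100 CPM or more, which were not matched to the cluster in level, the differences were of ordinary to moderate size. Among the 189 genes at 100 CPM or more, the median size of the log2 ratio was 0.18 in either direction and the SD of the log2 ratios was 0.32. A larger log2 ratio in either direction was seen in 36 of these genes than for Mir183, in 49 than for Mir182 and in 69 than for Mir96.

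**Figure D2:**
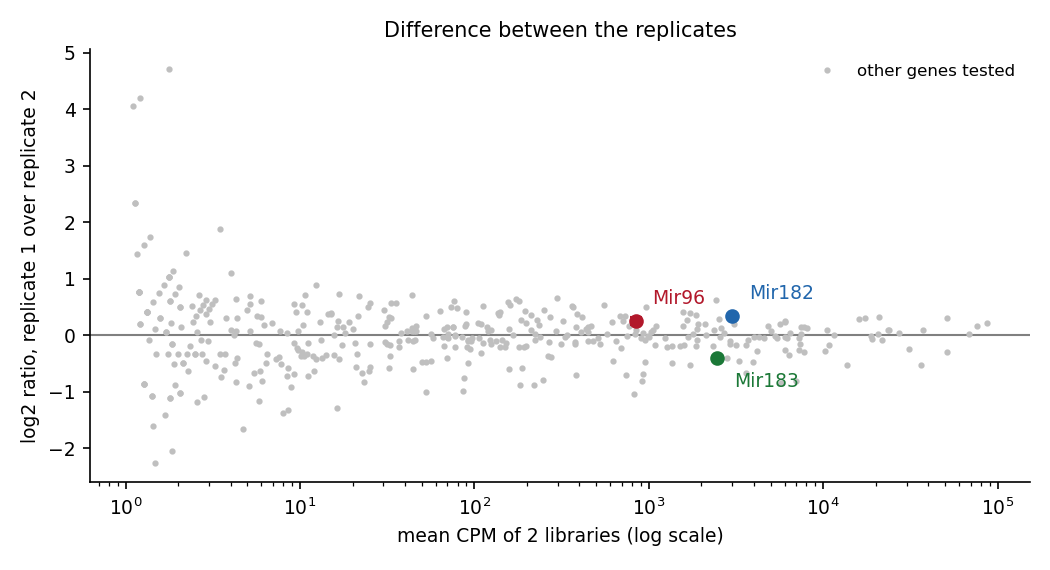
Log2 ratio of replicate 1 over replicate 2 (y axis) against mean CPM on a log scale (x axis) for the 436 genes with 10 counts or more over both libraries. Coloured points are the cluster genes, with 95% intervals for counting error that are mostly hidden by the points. Mir182 (0.34) and Mir96 (0.25) lie above zero and Mir183 (-0.40) below, within the cloud of other genes.

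The cluster genes stood in the upper part of the limb profile. By mean CPM, Mir182 ranked 57th, Mir183 65th and Mir96 102nd of the 1973 gene rows, and the same ranks hold among the 286 detected genes. Their levels in CPM were 11.2 times (Mir182), 9.21 times (Mir183) and 3.14 times (Mir96) the median detected gene, which stood at 269 CPM. In the single libraries the ranks were 52 and 61 for Mir182, 70 and 60 for Mir183, and 98 and 106 for Mir96 (replicate 1 and replicate 2). Per base of hairpin the ranks by mean were 53 for Mir182, 59 for Mir183 and 109 for Mir96.

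None of these places was firm against the next gene. Mir182 (3011 CPM) stood between Mir324 (3064 CPM) and Mir382 (2919 CPM), Mir183 between Mir541 (2520 CPM) and Mir181b-2 (2421 CPM), and Mir96 between Mir148a (905 CPM) and Mir467e (842 CPM). In all 6 pairs the order in one library was the opposite of that in the other.

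The genes most like each member were found by the Euclidean distance of log2(CPM + 1) over the 2 libraries, which with 2 libraries reflects level and little else. Nearest to Mir96 was Mir25 (906 CPM in replicate 1 and 752 CPM in replicate 2, distance 0.04), followed by Mir467e (0.11), whose value is uncertain because it shares a stretch of 20 bases or more with 16 other genes, and Mir34c (0.16). Nearest to Mir182 was Mir324 (3271 and 2857 CPM, distance 0.11), then Mir532 (0.30) and Mir382 (0.32). Nearest to Mir183 was Mir206, a microRNA of skeletal muscle (2196 and 2498 CPM, distance 0.18), then Mir361 (0.25) and Mir872 (0.28).

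MicroRNAs known from the limb were set beside the cluster. They were listed with earlier results of these data known, so they are no independent check of the tissue label. The Hox-cluster microRNA Mir196b was the highest gene of all, at 86831 ± 9376 CPM, and the cartilage microRNA Mir140 stood at 23899 ± 1020 CPM (SD, n = 2). The others listed had means of 20574 CPM (Mir10b), 7497 CPM (Mir10a), 3302 CPM (Mir615) and 1713 CPM (Mir455, cartilage). The sum of the sensory cluster was 0.246 times that of the 2 cartilage genes Mir140 and Mir455 in replicate 1 and 0.247 times in replicate 2. Against a muscle list of 2 genes, Mir206 and Mir133b, it was 2.86 times in replicate 1 and 2.45 times in replicate 2. Other muscle microRNAs were not in that list, so this is not a ratio to all of them. Mir133b shares a stretch with other genes, so the muscle sum may be too low. The limb was sequenced whole, so fewer cells with a microRNA and less of it per cell cannot be told apart.

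Lists of microRNAs from other cell types that a whole limb can hold were set beside the cluster, first those of the ectoderm, the outer cell layer of the limb, and then those of neural tissue. The summed level of the cluster, 6413 CPM in replicate 1 and 6237 CPM in replicate 2, was 0.345 and 0.329 times that of the 7 ectoderm genes, which summed to 18586 and 18972 CPM. Mir182 and Mir183 lay between ectoderm genes, below Mir205 (7403 ± 120 CPM), Mir203 (4587 ± 119 CPM) and Mir429 (3712 ± 152 CPM) and above Mir200c (1585 ± 139 CPM) (SD, n = 2). Mir96 lay below Mir200b (982 ± 1.71 CPM) and above Mir200a (313 ± 24.1 CPM) and Mir141 (196 ± 42.0 CPM), the lowest of that list. This wide range also held genes of other lists, such as Mir206 (muscle, 2347 CPM) and Mir375 (endocrine, 1511 CPM), so it does not set the cluster with the ectoderm.

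Neural microRNAs stood far lower. The cluster summed to 8.54 times the neural list in replicate 1 and 7.45 times in replicate 2, as 17 measured neural genes together reached 751 and 837 CPM. Each cluster gene exceeded every measured neural gene in both libraries, of which the highest were Mir137, at 144 CPM in replicate 1 and 158 CPM in replicate 2, and Mir128-1, at 125 and 190 CPM. Of the neural list, 11 genes were detected, while 0 counts fell on the neuronal Mir124a genes (Mir124a-3, Mir124a-2 and Mir124a-1) and on Mir9-2 in either library. However, 13 of the 17 share a stretch of 20 bases or more with another gene, and reads that map to several places were not assigned, so the neural sum is a lower limit. Mir137, Mir132 (77.8 ± 0.639 CPM), Mir153 (33.3 ± 5.10 CPM) and Mir212 (6.95 ± 0.800 CPM) carry no such stretch and still lay below Mir96 (SD, n = 2). Whether cells of the ectoderm or nerves in the limb gave the cluster's reads was not tested.

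**Figure D3:**
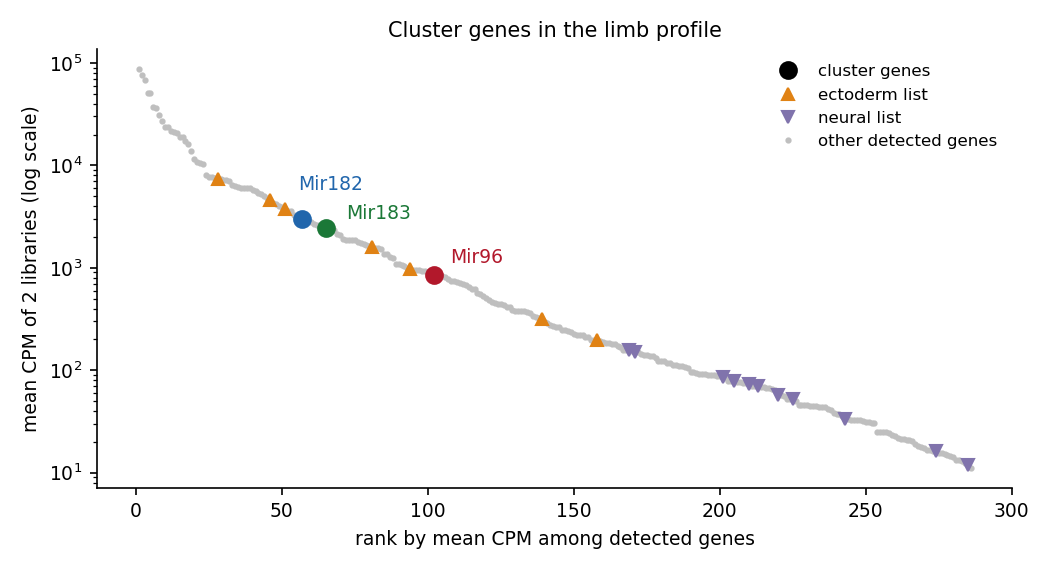
Mean CPM of the 2 libraries on a log scale (y axis) for the 286 detected genes, ordered by rank (x axis). Circles mark the cluster genes (Mir182 at rank 57, Mir183 at 65 and Mir96 at 102), upward triangles the ectoderm list and downward triangles the detected genes of the neural list. The cluster genes lie above the detected neural genes and within the wide range of the ectoderm genes, ranks 28 to 158. Genes of other lists lie in that range too, such as Mir206 (muscle, rank 68) and Mir375 (endocrine, rank 84).

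An endocrine list of Mir375, Mir7-1 and Mir7-2 was also below the cluster, which summed to 4.28 times that list in replicate 1 and 3.66 times in replicate 2. Mir7-1 and Mir7-2 share a stretch, so that sum is a lower limit. Mir375, a microRNA of pancreatic islets and other endocrine cells, stood at 1511 ± 143 CPM, between Mir183 and Mir96. An endothelium list of 1 gene, Mir126a, was above the cluster, at 18968 ± 624 CPM (SD, n = 2). The cluster summed to 0.346 times Mir126a in replicate 1 and 0.321 times in replicate 2, against 0.345 and 0.329 times the ectoderm list. The red blood cell microRNAs Mir451a (174 ± 54.4 CPM) and Mir144 (21.9 ± 7.45 CPM) were higher in replicate 1, and the ratio of the cluster to these 2 genes was 26.8 in replicate 1 and 41.0 in replicate 2. The direction in Mir451a and Mir144 (log2 ratios of 0.65 and 0.70 for replicate 1 over replicate 2) was that of Mir182 and Mir96 and not that of Mir183, and its part in their differences was not tested.

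MicroRNA genes cut from one transcript can still differ in level, so the spread within the cluster was set beside that of other runs of neighbouring genes. A run was defined as genes on one strand with at most 10 kb between neighbours and at least 3 detected genes, and spread as the highest detected gene over the lowest in a library. The cluster had a spread of 3.68 in replicate 1 and 3.66 in replicate 2. The other 11 runs all had larger spreads in both libraries, with means over the libraries from 8.31 to 4453 and a median of 51.0. With neighbours joined at up to 5 kb the 11 other runs had spreads of at least 6.57 and a median of 19.3, and at up to 50 kb the 13 other runs had at least 8.31 and a median of 70.0, all above the cluster. Genes under the detection threshold were left out, which can only lower the spread of the other runs.

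The nearest runs in spread were those of Mir302b to Mir302d, a cluster of pluripotent cells, at 8.31 and of Mir429, Mir200a and Mir200b, the ectoderm run, at 11.9. In the ectoderm run Mir429 stood at 3605 CPM in replicate 1 and 3820 CPM in replicate 2, against 296 and 330 CPM for Mir200a. At the far end, Mir322 stood at 68810 and 67878 CPM, against 13.7 and 17.5 CPM for Mir450-2, which lies in the same run. Runs with more genes have more room for spread, and lost reads of near-identical copies can widen it. Among the 3 other runs of exactly 3 detected genes the spread was 11.9, 19.3 and 75.7. In the last of these, Mir23a to Mir24-2, all 3 genes share a stretch with another gene, so its spread may be too wide. With genes that share a stretch left out, the spread was 11.9 to 418 in 8 other runs. All of these spreads lay above that of the cluster. Per base of hairpin the cluster's spread was 5.37, and the other 11 runs lay at 8.19 or more. No test bears on this order, and how runs compare in other tissues was not measured.

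**Figure D4:**
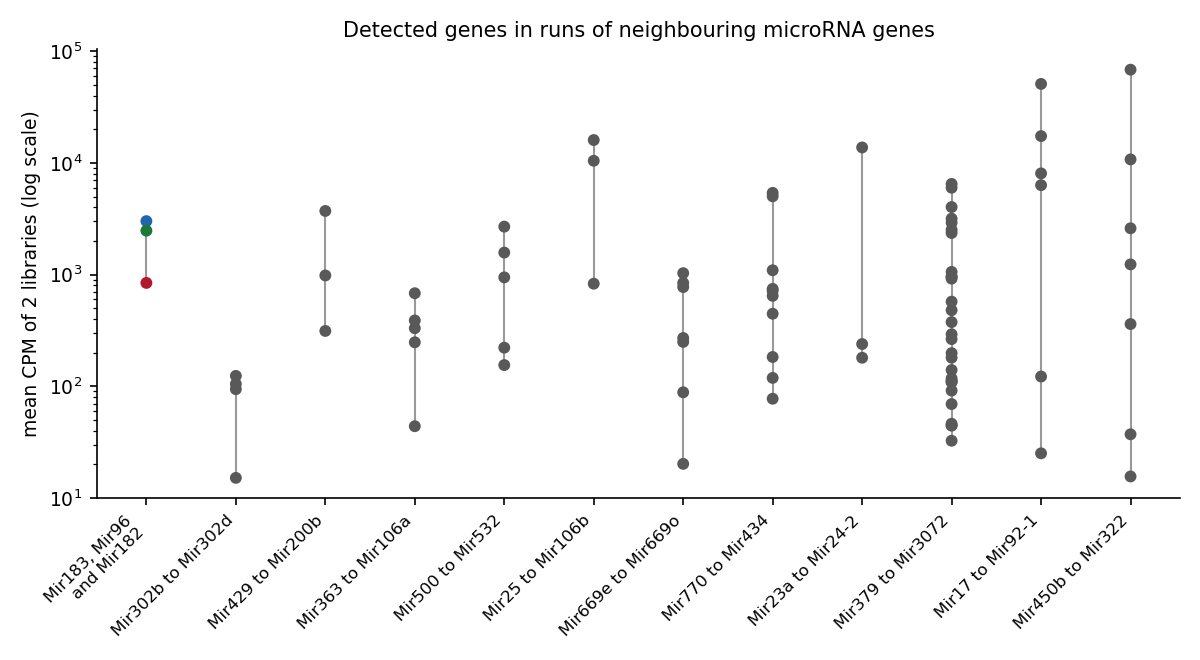
Mean CPM of the 2 libraries on a log scale (y axis) of every detected gene in the 12 runs of neighbouring microRNA genes, ordered along the x axis by spread. Each point is a gene and each line joins the highest and lowest gene of a run. The cluster, at the left in colour, has a spread of 3.67 as the mean of the libraries, and the other runs range from 8.31 to 4453. Genes that share a stretch with another gene are kept in, and without them the highest spread is 418.

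Neighbouring genes also differed in how they moved between the replicates. Mir96 and Mir183, with 116 bases between them, had log2 ratios that differed by 0.65, and 9 of the 71 other adjacent pairs in the runs differed by more. Mir96 and Mir182, with 3453 bases between them, differed by 0.09, and 57 of the other pairs differed by more. The median of the other pairs was 0.22. These pairs were not matched to the cluster in level, and some hold genes near the detection threshold, such as Mir302c (15.1 CPM). Counting error is larger in such genes and can widen their differences. Over a whole run, the log2 ratios of the cluster spanned 0.75, against a median of 0.66 in the other runs, of which 6 spanned less and 5 more. Runs with more genes have more room for this span too, and the 5 that spanned more held 5 to 29 detected genes. The 3 other runs of exactly 3 detected genes all spanned less than the cluster. Their spans were 0.15 (Mir429 to Mir200b), 0.21 (Mir25 to Mir106b) and 0.49 (Mir23a to Mir24-2).

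Other genes with the cluster's seeds gave few reads. Bases 2 to 8 of miR-96-5p recur in miR-1271-5p, which RefSeq assigns to Gm24195 on chromosome 13, and this gene had 0 counts in both libraries, a level of at most 0.663 CPM in replicate 1 and 0.832 CPM in replicate 2. Bases 2 to 8 of miR-96-3p recur in miR-3475-5p of Mir3475 on the X chromosome, which stood at 12.4 CPM in replicate 1 and 15.8 CPM in replicate 2. The seeds of miR-183-5p, miR-183-3p, miR-182-5p and miR-182-3p matched no other mature strand in the RefSeq table over bases 2 to 8.

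Of the microRNA genes within 1 Mb of the cluster, Mir335, on the opposite strand 572 kb away, stood at 76218 ± 6236 CPM (SD, n = 2). Mir29a, 893 kb away on the same strand, stood at 35.4 ± 9.99 CPM. The remaining rows were at or near 0, with 3 and 5 counts (replicate 1 and replicate 2) for Mir29b-1, 1 and 4 for Gm26220 and 0 in both for Gm23049.

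On the strand opposite to the genes there were almost no reads. Mir182 had 5 opposite-strand counts in each library, which is 0.0328% of its counts of both strands in replicate 1 (95% Clopper-Pearson interval 0.0106 to 0.0765) and 0.0523% in replicate 2 (0.0170 to 0.122). Mir183 had 5 in replicate 1 and 1 in replicate 2. For Mir96 the count was 0 in both, with an upper limit of the same kind of interval of 0.0890% in replicate 1 and 0.133% in replicate 2. Among the 286 detected genes the median share was 0% in both libraries.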

How the data were processed

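Whole-number counts of reads per microRNA gene were deposited by the authors, 1 table for each library. Per the README files deposited with them, reads were placed on mm10 and counted over GENCODE M4; which aligner and counter were used is not given in the sources used here. Each table holds counts of both strands, of the gene's own strand and of the opposite strand, told apart because the first is the sum of the others and nearly all counts lie in one. Own-strand counts were used. Gene counts totalled 4525636 in replicate 1 and 3604284 in replicate 2. Rows that name no gene (unmapped, multimapping and unannotated reads) held 57.5% and 63.0% of all reads and were left out. A count of 0 allows up to 3 counts.

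Identifiers were matched without version to GENCODE M21 (GRCm38), with 1894 of 1973 rows matched, and all 3 members matched to RefSeq sequences. Work used Python 3.11.15, scipy 1.17.1, R 4.3.3, edgeR 4.0.16, DESeq2 1.42.0 for size factors, and RNAfold 2.7.2. The replicate test took genes with 10 counts or more over both libraries. The threshold was 0.05 for the adjusted p, and 0.5 counts were added for log2 ratios. It was run on simulated data that held counting error alone. That run cannot show how the test behaves with the further spread between real libraries. Named genes were the members, the 3 genes nearest to each, genes that share a seed, neighbours within 1 Mb, listed genes of other tissues, the genes next in rank and the ends of runs. Alternatives tried were other scalings, strands, thresholds and tests, levels per base, and other joins of runs. Members and lists were chosen with earlier results of these data known, and genes next in rank were chosen after their values were seen. The labels call the libraries biological replicates from separate pools, with 1 donor identifier for both. The exact binomial p-values set the difference between these 2 libraries against counting error alone and do not measure a spread between replicates. The edgeR test takes its spread from the same 2 libraries.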

Additional observations from a re-analysis of the deposited data

Results flagged for a closer look

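Counts on the opposite strand, outside the main measurement, exceeded the 3 counts that a count of 0 allows for Mir183 in replicate 1 (5 counts) and for Mir182 in replicate 1 (5 counts) and replicate 2 (5 counts). Among the 286 detected genes, 11 in replicate 1 and 9 in replicate 2 had more opposite-strand counts than this. The source of these reads was not tested.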

How the results depend on the processing

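Of 66 values recomputed, 47 were labelled unchanged. For replicate differences this meant the same direction and call, and for levels, ratios and ranks a move within the spread between replicates. Counts of genes or runs were labelled by a fold limit, so 417 genes detected at 1 CPM, against 286, passed as unchanged. Some of the 47 were fixed in advance. Another count added for log2 ratios cannot change the p-values, and joining at 5 kb or 50 kb left the cluster's 3 genes the same. No replicate difference changed direction, but the ratio of Mir182 to Mir183 crossed 1 between the libraries (1.58 without replicate 2 and 0.943 without replicate 1). TMM and DESeq2 scaling moved no cluster level beyond that spread. Per 1000000 reads of all kinds in the tables, which is a larger total, the levels were 1207 (Mir182), 973.5 (Mir183), 336.9 (Mir96) and 2517 (sum). With the 10 highest genes left out of the total they were 5898, 4832, 1650 and 12380 CPM. Counting both strands gave a sum of 6169 CPM. Per base of hairpin, the ratio of Mir183 to Mir96 was 4.53, that of Mir182 to Mir96 was 5.04, the cluster's spread was 5.37 and the rank of Mir96 was 109. At 100 CPM in both libraries 186 genes were detected. Limiting the comparison to runs of exactly 3 detected genes left 3 other runs, all with a larger spread. With the edgeR negative binomial test the log2 ratios were -0.42 for Mir183, 0.24 for Mir96 and 0.33 for Mir182, each with an adjusted p of 1 (0 genes called, against 182 in the exact binomial test), since that test adds the spread between these libraries. With 2 libraries, the mean without one of them always moves by less than 1 SD, so 16 such values were not counted. Without a replicate, the levels ranged from 2654 to 3368 CPM for Mir182, 2130 to 2814 CPM for Mir183 and 769 to 916 CPM for Mir96. The comparisons per base for spread, without genes that share a stretch, and of runs of 3 were chosen after the data were seen. No paired analysis was possible because there is 1 group. Depth limits little here, as each cluster gene had 2772 counts or more per library; the limit is the number of replicates.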
